A study of Mus musculus with 6 samples.

Results

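The genes described here are the ion channels, and the subunits and partner proteins annotated with them, that were listed for mouse choroid plexus of the lateral ventricles in 2 deposited tables comparing embryonic day 15 (E15) with the adult. The tables were joined into 3956 transcript clusters, a transcript cluster being the array's unit for a gene. A cluster was taken as a member when its molecular function ontology text held the words channel activity, or when a gene symbol in it started with Kcn, Cacn, Scn, Trpm, Trpv, Trpc, Clcn or Clic, and solute carriers, ABC transporters and aquaporins were left out by symbol. This gave 87 members of the 3956 clusters. The ontology text alone found 86, of which 33 also had one of the symbols, and 1 member, Kcne1l, came in by its symbol only. The ontology text is broad, so the members include proteins that only bind or regulate channels and, in Mip of the lens, a water channel.

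RNA came from whole lateral ventricular plexus of Swiss Webster mice, without any treatment or genetic change, and was hybridised to 6 Affymetrix mouse exon arrays, 3 for each age. Each array carried 1 pool of animals. The labels give 30 embryos of mixed sex in each E15 pool and 10 females in each adult pool, while the supplementary description gives other pool sizes. The methods put the adults used for morphology at 10 weeks of age, and the supplementary description puts those of the arrays at over 3 months. Age and sex cannot be told apart. Each table holds 1 merged value for an age, a log2 value apparently centred for each cluster. No spread between pools could therefore be computed, and no difference below carries an error or a test. Differences are given on the log2 scale as adult minus E15, and a fold is 2 to the power of the size of a difference. Because the values are centred for each cluster, they say how one age stood to the other and not how abundant a transcript was. In bulk tissue, fewer cells of a type and less RNA per cell cannot be told apart.

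Ion channels are membrane proteins that open a pore for potassium, sodium, calcium, chloride or mixed ions in response to voltage, a ligand, calcium or a mechanical stimulus. Auxiliary subunits set where a channel sits and how it opens. In the choroid plexus, an epithelium that secretes cerebrospinal fluid around a core of vessels and stroma, potassium and chloride channels of the epithelial membranes recycle the ions moved by the sodium pump and by cotransporters, and cation channels sense osmotic and mechanical load.

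The bases before the start of 5 members are shown because the comparisons below turn on them. Gabrg1, Gabra2 and Chrna3 were higher at E15 while a gene of the same locus was higher in the adult, and Trpv4 and Kcne2 are channel genes of the plexus epithelium that differed in opposite directions. The sequences are from RefSeq on GRCm38.p6, 5′ to 3′ on the strand of the gene, and end at the base before the start or, for Trpv4, 14 bases short of it, where the span of a protein-coding gene begins. They lie at chr5:70842618-70842867 (Gabrg1, minus strand), chr5:71095850-71096099 (Gabra2, minus), chr9:55026563-55026812 (Chrna3, minus), chr5:114658436-114658671 (Trpv4, minus) and chr16:92292139-92292388 (Kcne2, plus). All are upstream of a gene, outside the spans of protein-coding genes. Capitals mark a GC box (GGGCGG, or CCGCCC when it lies on the other strand) or a CCAAT box (CCAAT, or ATTGG on the other strand).
Gabrg1: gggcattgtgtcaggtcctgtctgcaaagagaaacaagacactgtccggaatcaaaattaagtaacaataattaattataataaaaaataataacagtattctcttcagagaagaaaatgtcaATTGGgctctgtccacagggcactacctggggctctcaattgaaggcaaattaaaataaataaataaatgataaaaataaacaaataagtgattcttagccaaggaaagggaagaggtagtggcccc
Gabra2: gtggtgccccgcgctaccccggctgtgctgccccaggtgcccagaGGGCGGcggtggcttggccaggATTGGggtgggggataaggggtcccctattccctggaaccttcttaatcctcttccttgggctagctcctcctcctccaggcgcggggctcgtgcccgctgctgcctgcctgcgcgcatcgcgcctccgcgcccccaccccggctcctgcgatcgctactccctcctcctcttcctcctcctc
Chrna3: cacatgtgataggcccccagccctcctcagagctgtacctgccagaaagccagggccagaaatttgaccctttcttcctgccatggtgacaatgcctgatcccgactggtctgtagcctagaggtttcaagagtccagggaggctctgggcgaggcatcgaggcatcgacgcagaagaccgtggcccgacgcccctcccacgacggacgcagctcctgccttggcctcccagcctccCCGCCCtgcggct
Trpv4: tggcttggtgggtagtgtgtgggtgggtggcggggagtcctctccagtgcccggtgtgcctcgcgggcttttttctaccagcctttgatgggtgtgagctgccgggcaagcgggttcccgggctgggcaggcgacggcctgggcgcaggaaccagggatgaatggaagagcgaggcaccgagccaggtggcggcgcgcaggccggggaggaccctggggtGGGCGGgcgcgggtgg
Kcne2: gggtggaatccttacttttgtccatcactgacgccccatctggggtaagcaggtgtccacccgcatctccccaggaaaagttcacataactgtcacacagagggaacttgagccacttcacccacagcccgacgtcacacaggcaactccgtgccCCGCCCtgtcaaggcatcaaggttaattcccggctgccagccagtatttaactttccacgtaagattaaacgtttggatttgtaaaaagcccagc
The Gabrg1 window held 1 CCAAT box and no GC box, and that of Gabra2 held 1 of each. The windows of Chrna3, Trpv4 and Kcne2 each held 1 GC box and no CCAAT box.

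Channel genes differed at least 2-fold between the ages in both directions. Of the 87 members, 52 (59.8%) differed at least 2-fold, beside 47.3% of all joined clusters. In the adult 28 members were higher by that much (32.2%), where the background was 22.9%, and at E15 24 were (27.6%), where it was 24.4%. Counting every size of difference, 49 were higher in the adult and 38 at E15 (of all joined clusters, 54.1% were higher at E15), and their median difference was 0.15, beside -0.16 for all joined clusters. Past 3-fold were 12 members in the adult and 9 at E15, beside 8.87% and 9.98% of all joined clusters, and past 4-fold 8 and 3, beside 5.03% and 5.84%. Without annotations inferred electronically, the order of the counts turned, with 16 of 62 members past 2-fold in the adult and 18 at E15. The background is high because the gene-level table lists only clusters that passed the study's own test and a 2-fold threshold. Clusters of the other table were selected by the authors on exon use, so genes past neither selection are not among the joined clusters. Re-centring each age on the median of all clusters, which adds 0.15 to every difference, gave 29 members past 2-fold in the adult and 20 at E15, with Kctd5, Trpm8, Cacna1g and Kcne2 no longer past 2-fold. The gene-level table listed 45 of the members (51.7%, beside 45.6% of all clusters), 24 of them higher in the adult (53.3%, beside 48.8% of all its clusters) and 21 at E15 (46.7%, beside 51.2%). The other 42 were in the splicing index table only, and 7 of these (16.7%) were past 2-fold, where 3.11% of all clusters of that table alone were. They were 4 in the adult (9.52%, beside 1.16%) and 3 at E15 (7.14%, beside 1.95%).

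The differences ran from -3.25 for Gja1 to 3.15 for Kcnh1. Among members past 2-fold the median fold was 2.47 in the adult and 2.86 at E15. Solute carriers, the other large class of ion-moving genes, had a similar share past 2-fold: 54.8% of 115 clusters, 39 higher in the adult and 24 at E15. Their median fold was larger in both directions, at 3.17 in the adult and 3.39 at E15, and their median difference was 0.52. Whether channels and carriers differed in this could not be tested on merged values.

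**Figure D1:**
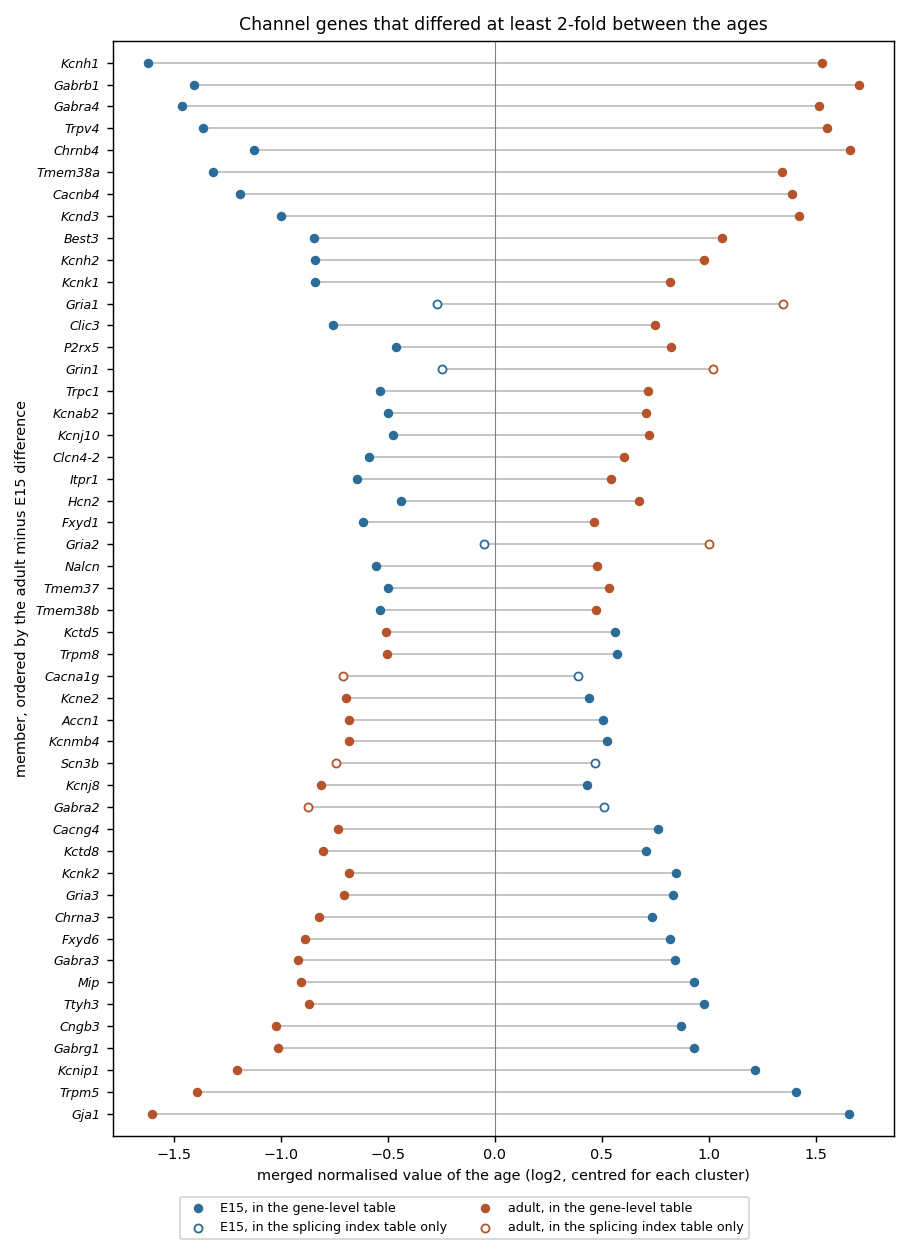
Merged value of each age (log2, centred for each cluster) for the members that differed at least 2-fold and are named here, blue for E15 and brown for the adult, with open points for those in the splicing index table only. The pairs run from Kcnh1, higher in the adult by 3.15, to Gja1 at -3.25, and most lie evenly about 0, whereas Gria1, Grin1 and Gria2 have E15 values close to 0.

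Markers of several cell types moved with age in the same samples, and their part in the channel values was not tested. For choroid plexus epithelium 5 of 12 listed markers had a value, and Prlr (7.87, the larger of 2 clusters, the other at 6.60), Kl (4.78) and Cldn2 (2.10) were past 2-fold in the adult, while Enpp2 (0.88) and Igf2 (0.29) were below. The defining marker Ttr and 6 others had no value among the joined clusters under the symbols searched. All 4 oligodendrocyte markers with a value, of 8 listed, were past 2-fold in the adult, Mbp by 2.09. Of 5 astrocyte and ependyma markers with a value, Aldh1l1 (2.90) and Gfap (1.42) were past 2-fold in the adult, Foxj1 (-1.02) and Dynlrb2 (-1.01) were past 2-fold at E15, and Slc1a2 stood at 0.31. Of 3 macrophage markers, 1 was past 2-fold, toward E15. Toward E15, 4 of 5 endothelial markers, 3 of 4 pericyte and smooth muscle markers, 5 of 6 mesenchymal markers and 5 of 8 erythroid markers with a value were past 2-fold. Neural progenitor markers were past 2-fold toward E15 in all 4 cases, led by Dcx at -2.29. Since the values are centred, no marker can be read as present or at 0 in either age.

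**Figure D2:**
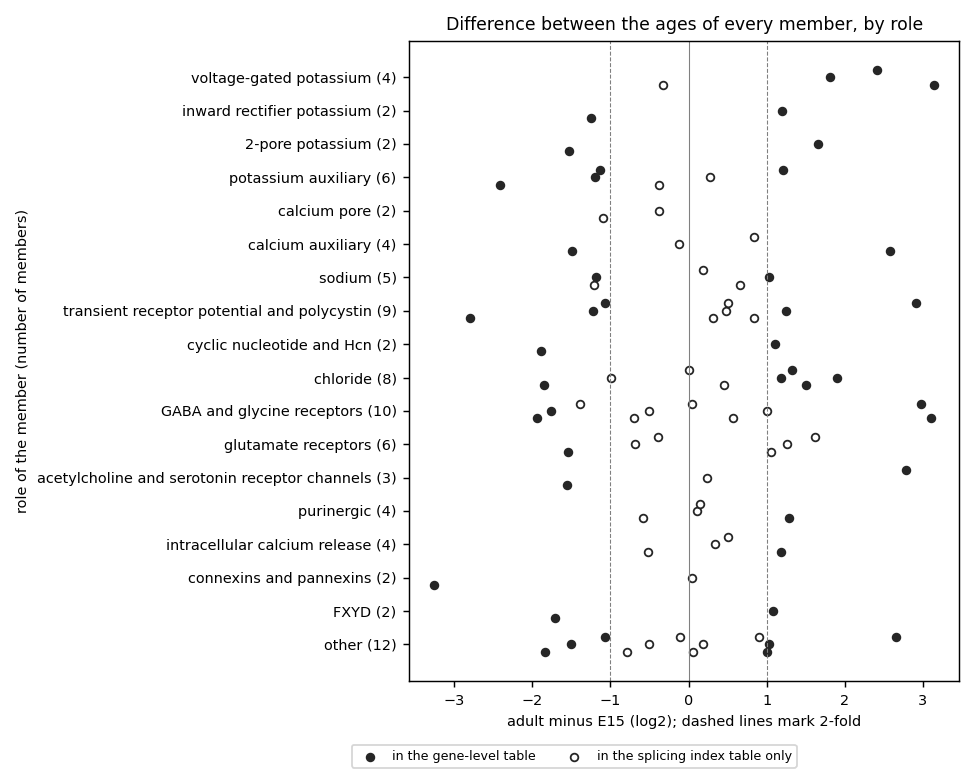
Adult minus E15 difference (log2) of all 87 members, 1 point for each, grouped by role with the number of members in brackets; filled points are in the gene-level table, and dashed lines mark 2-fold. Of the chloride channels 6 of 8 lie to the right of 0, and many roles have members past 2-fold on both sides.

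Of the pore-forming potassium channels 5 of 8 were higher in the adult by any size, and of their auxiliary subunits 4 of 6 were higher at E15, where 54.1% of all joined clusters were. The same 5 pore-forming genes were past 2-fold in the adult, and 2 were at E15. Of 6 auxiliary genes, 1 was past 2-fold in the adult and 3 at E15, or 2 after re-centring. Of all joined clusters 22.9% were past 2-fold in the adult and 24.4% at E15, and with so few genes a group the counts are a description only. Kcnh1, an ether-a-go-go channel, stood at 1.53 in the adult and -1.62 at E15, a difference of 3.15 and the largest toward the adult among the members. Kcnd3, a channel of the fast inactivating A-type current, stood at 1.42 and -0.998 (2.42). Kcnh2, the channel of cardiac repolarisation, stood at 0.97 and -0.84 (1.82). Their relative Kcnh5 was the only voltage-gated potassium member below 2-fold, at -0.32. Kcnip1, a calcium-binding subunit that modulates channels of the Kcnd family, went the other way from Kcnd3, at -1.20 in the adult and 1.21 at E15 (-2.42).

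Background potassium channels of the 2-pore type split by gene. Kcnk1 was higher in the adult (0.82 and -0.84, a difference of 1.66), whereas Kcnk2, which responds to stretch and lipids, was higher at E15 (-0.68 and 0.84, a difference of -1.53). The inward rectifiers split likewise. Kcnj10, best known from glia, stood at 0.72 in the adult and -0.48 at E15 (1.20), beside the glial markers given above, whose part was not tested, and Kcnj8, the pore of vascular ATP-sensitive channels, at -0.81 and 0.43 (-1.24). Abcc9, the sulphonylurea receptor that pairs with Kcnj8 and is listed here as a pericyte marker, had a difference of -1.60.

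Kcne2, a small subunit that sits with potassium channels in the apical membrane of the plexus epithelium, stood at -0.69 in the adult and 0.44 at E15, a difference of -1.13. It was below 2-fold after re-centring. Kcnmb4, a subunit of calcium-activated potassium channels, was also higher at E15 (-1.20), and Kcnab2, a cytoplasmic beta subunit, was higher in the adult (1.20). Kcnab3 (0.27) and Kcne1l (-0.38) were below 2-fold. The Kctd genes, whose products carry a domain like the assembly domain of potassium channels but form no pore, numbered 5, of which Kctd8 (-1.51) and Kctd5 (-1.07) were past 2-fold at E15 and none in the adult, where 24.4% and 22.9% of all joined clusters were, and Kctd5 was below 2-fold after re-centring.

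Calcium channel genes gave few members, and none of the pore-forming ones was in the gene-level table. Cacna1g, the pore of a T-type channel, stood at -0.71 in the adult and 0.39 at E15 (-1.10), which was also below 2-fold after re-centring. Cacna1d, an L-type pore, had a difference of -0.38. The larger differences were in auxiliary subunits. Cacnb4, a beta subunit that brings the pore to the membrane, stood at 1.39 in the adult and -1.19 at E15 (2.58), and Cacng4, a gamma subunit that also binds AMPA receptors, at -0.73 and 0.76 (-1.50). Cacna2d2 (0.83) and Cacna2d3 (-0.12) were below 2-fold. Tmem37, a protein related to the gamma subunits, was higher in the adult by 1.03.

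Channels of intracellular calcium stores were mostly below 2-fold, except for 1 receptor for inositol trisphosphate. Itpr1 stood at 0.54 in the adult and -0.64 at E15 (1.18), while Itpr2 (0.33), Ryr2 (0.51) and Itpr3 (-0.52) stayed below. Tmem38b, an intracellular cation channel that balances charge during calcium release, was higher in the adult by 1.01. The cluster of its relative Tmem38a, which also carries the symbol Nwd1 and cannot be assigned to either gene alone, stood at 1.34 and -1.31 (2.66).

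Sodium channel genes were divided between the ages. Nalcn, a leak channel that sets resting potential, stood at 0.48 in the adult and -0.55 at E15 (1.03). Scn3b, an auxiliary beta subunit, stood at -0.74 and 0.47 (-1.21), and Accn1, an acid-sensing channel now named Asic2, at -0.68 and 0.51 (-1.19). The voltage-gated pores Scn8a (0.66) and Scn11a (0.18) were below 2-fold. Of the cyclic nucleotide class, Hcn2, a pacemaker channel, was higher in the adult (0.67 and -0.44, a difference of 1.11), and Cngb3, known from cone photoreceptors, was higher at E15 (-1.02 and 0.87, a difference of -1.89).

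Transient receptor potential channels held large differences in both directions. Trpv4, an osmosensitive and mechanosensitive cation channel of the plexus epithelium, stood at 1.55 in the adult and -1.36 at E15, a difference of 2.92 or 7.55-fold. Trpm5, a calcium-activated cation channel known from taste cells, stood at -1.39 and 1.41 (-2.80), or 6.94-fold higher at E15. Trpc1 was higher in the adult (1.25), and the cold receptor Trpm8 (-1.07) was higher at E15. Another 4 were all toward the adult and below 2-fold, with Mcoln1 of lysosomes at 0.84, Pkd1 at 0.51, Pkd2 of cilia at 0.48 and Trpm3 at 0.32. Of 9 members of this class 2 were past 2-fold in the adult (22.2%) and 3 at E15 (33.3%, and 2 members after re-centring), close to the 22.9% and 24.4% of all joined clusters.

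Chloride channel genes were higher in the adult for 6 of 8 members. Past 2-fold in the adult were 4 of the 8 (50.0%, beside 22.9% of all joined clusters), among them Best3, a bestrophin (1.90), Clic3, an intracellular chloride channel protein (1.51), and Clcn4-2, an endosomal chloride and proton exchanger (1.19). Best3 stood at 1.06 in the adult and -0.84 at E15. Clic3 stood at 0.75 and -0.76. Only Ttyh3, of the tweety family, was past 2-fold at E15 (12.5% of the class, beside 24.4%), at -0.87 in the adult and 0.98 at E15 (-1.84). Clic4 lay just short of the threshold toward E15 (-0.997), and Clcn6 (0.45) and Clca4 (0.01) were below it. By the ontology text, which also counts GABA receptors as chloride channels, 8 of 18 members were past 2-fold in the adult (44.4%) and 4 at E15 (22.2%), the latter near the share of all clusters.

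Subunits of the GABA-A receptor, the chloride channel opened by the transmitter GABA, had members past 2-fold toward each age. Of 10 subunits, 3 were past 2-fold in the adult and 3 at E15 (30.0% each), not far from the 22.9% and 24.4% of all joined clusters. Gabrb1 stood at 1.70 in the adult and -1.41 at E15 (3.11), in a cluster shared with Rpl5 and a further symbol. Gabra4 stood at 1.51 and -1.46 (2.97). Toward E15, Gabrg1 stood at -1.01 and 0.93 (-1.94), Gabra3 at -0.92 and 0.84 (-1.76) and Gabra2 at -0.87 and 0.51 (-1.38). Each of these 3 shares its cluster with a second symbol. Gabrp (0.57), Gabrr2 (0.04), Gabrq (-0.50) and Gabre (-0.70) were below 2-fold.

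Gene order at the GABA locus of chromosome 5 divided these values. In the RefSeq table on GRCm38.p6 the genes lie in the order Gabrg1, Gabra2, Gabra4, Gabrb1, with 1 gene between Gabra2 and Gabra4. The first pair was higher at E15 (-1.94 and -1.38) and the second pair in the adult (2.97 and 3.11), so that the difference moved by 4.36 between Gabra2 and Gabra4. Of these genes, Gabra2 was in the splicing index table only, so it was not among the clusters past the study's own test. Gabra4 and Gabrb1 are read on opposite strands from starts 387 bases apart, and their spans overlap by 388 bases. Gabrg1 and Gabra2, whose upstream bases are given above, lie on the same strand. On the X chromosome Gabre, Gabra3 and Gabrq were all toward E15 (-0.70, -1.76 and -0.50).

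The nicotinic receptor genes Chrna3 and Chrnb4 also differed in opposite directions. Their products assemble with each other in the receptor of autonomic ganglia, and the genes are adjacent on chromosome 9, on the same strand with 1591 bases between them. Chrnb4 stood at 1.66 in the adult and -1.13 at E15 (2.79), and Chrna3 at -0.82 and 0.73 (-1.56), a gap of 4.34 between neighbours. Chrna7, of another locus, differed by 0.24. Among all joined clusters 838 pairs were adjacent protein-coding genes, 57.5% of them with both genes in the same direction and 10.0% with opposite directions and both past 2-fold. The members gave 6 adjacent pairs, 4 in the same direction, and Chrna3 with Chrnb4 was the 1 pair opposite with both past 2-fold. Gabrp (0.57) and Kcnip1 (-2.42), adjacent on chromosome 11, were the other opposite pair, with a gap of 2.99.

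**Figure D3:**
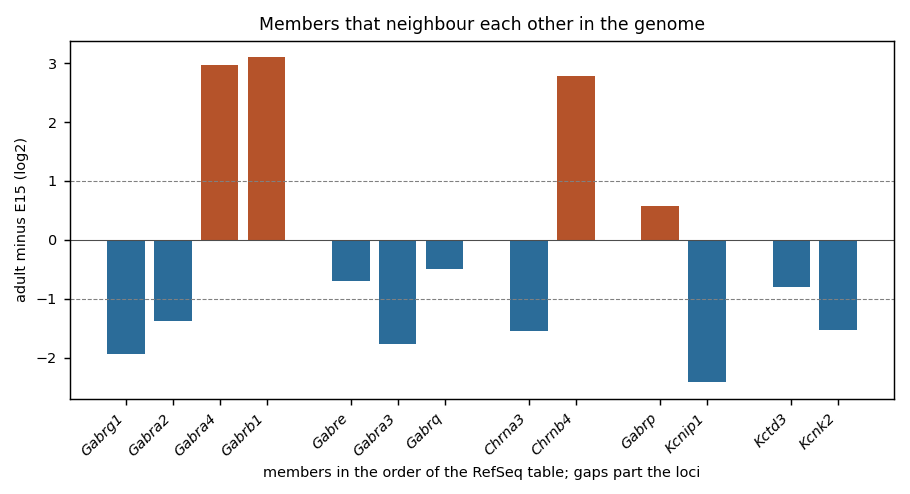
Adult minus E15 difference (log2) of members that neighbour each other in the RefSeq table, brown bars higher in the adult and blue bars higher at E15, with gaps between loci and dashed lines at 2-fold. Gabrg1 and Gabra2 lie at -1.94 and -1.38 beside Gabra4 and Gabrb1 at 2.97 and 3.11, and Chrna3 lies at -1.56 beside Chrnb4 at 2.79.

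Of 6 glutamate receptor genes 3 were past 2-fold in the adult and 1 at E15, beside 22.9% and 24.4% of all joined clusters. Those 3 were in the splicing index table only, where 1.16% of all clusters were past 2-fold in the adult. Gria1, an AMPA receptor subunit, stood at 1.35 in the adult and -0.27 at E15 (1.62). Grin1, the subunit every NMDA receptor needs, stood at 1.02 and -0.25 (1.26), and Gria2, the AMPA subunit that limits calcium entry, at 1.00 and -0.05 (1.05). Gria3 was the gene-level member of this class, at -0.70 in the adult and 0.83 at E15 (-1.54). The kainate receptor subunits Grik4 (-0.69) and Grik5 (-0.40) were below 2-fold.

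These 3 clusters also differed from other members in how their values lay about 0. For most clusters the adult and E15 values nearly cancel, and the median size of their sum was 0.10 both for the 45 members in the gene-level table and for all 1805 clusters of that table. For the 7 members past 2-fold outside that table it was 0.77, with 1.08 for Gria1, 0.95 for Gria2 and 0.77 for Grin1. Cacna1g, Scn3b and Gabra2 had sums from -0.36 to -0.27. Within the gene-level members the largest was 0.53, for Chrnb4.

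Neuron markers moved with these receptor subunits. Of 18 listed, 7 had a value, and 6 of them were past 2-fold in the adult. They were Camk2a (2.66), Syt1 (1.97), Slc17a7 (1.73), Syp (1.54), Snap25 (1.52) and Eno2 (1.25), and Nefm was past 2-fold at E15 (-1.71). The median size of their sums was 0.73, with 1.79 for Camk2a, 1.27 for Slc17a7 and 1.00 for Snap25, and these 3 were likewise in the splicing index table only. The part of neurons, or of a single pool, in the receptor values was not tested, since no value of a single array was at hand.

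**Figure D4:**
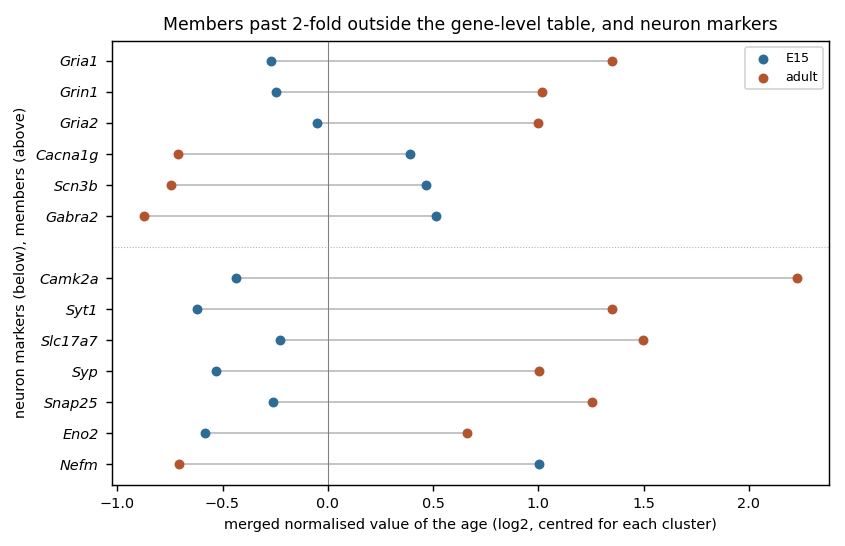
Merged values of both ages (log2, centred for each cluster) for 6 members past 2-fold outside the gene-level table (above the dotted line) and the 7 neuron markers with a value (below it). Gria1, Grin1 and Gria2 have E15 values from -0.27 to -0.05 and adult values up to 1.35, and Camk2a, Slc17a7 and Snap25 lie to the right in the same way.

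Among the ATP-gated P2X receptors only P2rx5 was past 2-fold (0.82 in the adult and -0.46 at E15, a difference of 1.28). P2rx4, described in the plexus epithelium, had a difference of -0.58, and P2rx6 (0.15) and P2rx2 (0.11) were near 0. Gja1, which encodes connexin 43 of gap junctions, stood at -1.60 in the adult and 1.65 at E15. Its difference of -3.25, or 9.54-fold, was the largest in size among the members. Markers of several cell types lay toward E15 and others toward the adult, as given above, and their part was not tested. The other connexin, Gjb5, had a difference of 0.04. The FXYD proteins, small regulators of the sodium pump, split into Fxyd1 in the adult (0.46 and -0.62, a difference of 1.08) and Fxyd6 at E15 (-0.89 and 0.82, a difference of -1.70). Mip was also higher at E15 (-1.84). The proton channel Hvcn1 (-0.11) and the sperm channel Catsper4 (0.06) were near 0.

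Channels described as belonging to the plexus epithelium were represented by 6 of 21 genes listed. Trpv4 (2.92) and Kcnk1 (1.66) were past 2-fold in the adult, Kcne2 (-1.13) at E15, and Pkd2 (0.48), Trpm3 (0.32) and P2rx4 (-0.58) were below. The other 15, including Kcnj13, Kcnq1 and Kcna1, had no value among the joined clusters under the symbols searched. Of 56 listed genes that anchor, traffic or regulate channels, 21 had a value, and 5 were past 2-fold toward each age, about the share of all joined clusters (22.9% in the adult and 24.4% at E15). Those of the adult included them the kinases Sgk1 (1.80) and Stk39 (1.02), which control ion transport, the scaffold Dlg2 (1.30), and Rapsn (1.37), which clusters nicotinic receptors. Those of E15 included the membrane anchor Ank2 (-1.43), Cav1 (-1.19), Nedd4l (-1.06) and Fgf12 (-1.04). Nedd4l and Fgf12 were below 2-fold after re-centring.

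All 5 X-linked members, Gria3, Gabra3, Gabre, Gabrq and Kcne1l, were higher at E15, and 2 of them, Gabra3 and Gria3, were past 2-fold. Of all 148 X-linked clusters, 56.1% were higher at E15 and 28.4% were past 2-fold in that direction. The adult pools were female and the E15 pools of mixed sex, and Gabre, Gabra3 and Gabrq belong to 1 locus.

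The deposited splicing index, a signed score for uneven exon use whose scale is not stated, was given for 78 members. Its median size was 0.99, beside 0.90 for all clusters with an index, and 48.7% of the members had a size of at least 1, beside 40.1%. The largest values belonged to Trpv4 (-2.90, from 18 probe sets), Gabra4 (-2.66, 11 probe sets), Trpm5 (2.57, 24 probe sets), Cacna1g (-2.27, 44 probe sets) and Cacnb4 (-2.13, 13 probe sets). In 4 of these 5 genes the index had the opposite sign to the difference between ages, Cacna1g being the exception. That opposition was common in the whole table. It held for 69.8% of the members past 2-fold with an index, beside 77.5% of all such clusters, and for 42.9% of the members below 2-fold, beside 53.3%. Among the 5 genes with the largest index, Cacna1g was also the one whose difference lay closest to 2-fold.

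**Figure D5:**
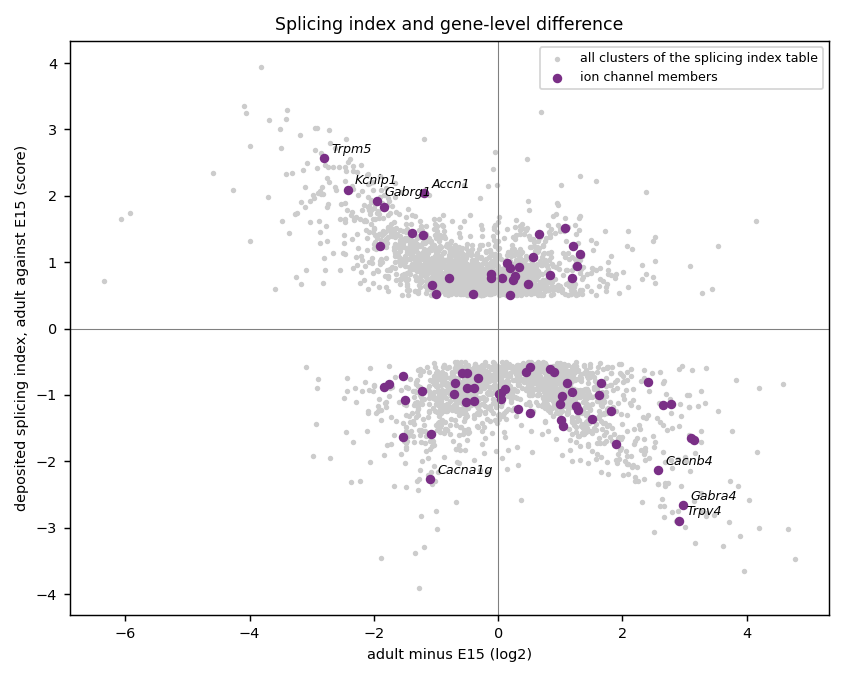
Deposited splicing index (score) against the adult minus E15 difference (log2) for all clusters of the splicing index table (grey) and the 78 members with an index (purple). Trpv4, Gabra4 and Cacnb4 lie at the lower right and Trpm5 at the upper left, along the trend of all clusters, while Cacna1g lies at the lower left with -2.27.

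The bases before the starts of members past 2-fold held common promoter motifs at shares on both sides of those of all genes. Windows of 250 bases before a start were searched on both strands, giving 27 windows for 21 genes higher in the adult and 26 windows for 18 genes higher at E15, beside 32851 windows of all genes. The GC box was in 44.4% of the adult windows, 34.6% of the E15 windows and 32.7% of all. The CCAAT box was in 22.2%, 46.2% and 33.8%, and the TATA box (TATAAA) in 0, 3 E15 windows (11.5%) and 12.4%. The E-box CAGCTG was in 14.8%, 19.2% and 13.0%. The core of OTX factors, TAATCC, was in no adult window and in 2 E15 windows, of Gabra2 and Mip, beside 6.25% of all, and the forkhead core GTAAACA was in none of the windows of either set, beside 3.17% of all. None of these motifs is contained in another, but matches may overlap in a window, and windows of the same gene can share bases. These counts describe letters in short windows and were not tested.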

How the data were processed

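Members and gene lists were chosen with earlier results of these data known. The authors normalised the arrays with Affymetrix Power Tools by RMA, kept expressed genes, applied an unpaired test with a corrected p of 0.05, and deposited 1 log2 value for each age. Centring for each cluster is not stated and was read from the values, which nearly cancel for most clusters. The gene-level table holds clusters past the unpaired test and 2-fold. The splicing index table holds the deposited index, a score of at least 0.5 in size, with the same log2 values. For the exon level the supplementary description also gives a filter for detection above background and a splicing analysis of variance with a corrected p of 0.05. Genome build and software versions are not given in the sources used here. The fold change and direction columns are the authors' own comparison and were not used, nor was the table of clusters common to both. With 0 columns of single arrays, the planned per-array fits were not run, and the number of arrays limits the precision.

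The tables were joined by cluster, which left 1218 clusters in both, and members were found with Python 3.11.15, numpy 2.4.6, pandas 2.3.3 and matplotlib 3.10.9. The rule, the counts and the re-centring were tested on simulated data, and the joining was not. RefSeq symbols matched 86 members, all but Clca4, 2 of them through older symbols, and 69 members had a promoter window. There were 8 members that share a cluster with other symbols. Named were the 10 members with the largest difference in each direction, listed plexus channels with a value, the largest difference in each direction of each role group and all members of groups of up to 5, the 5 largest splicing indices, members past 2-fold outside the gene-level table, and partners and markers that a result turns on; other members named were chosen after their values were seen. Some genes counted in the groups are not reported here by name.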

Additional observations from a re-analysis of the deposited data

How the results depend on the processing

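No paired analysis was possible because the tables hold 1 merged value for each age. For the same reason the model with moderated variance against the unpaired test and the omission of each replicate were not run, and log2 of the deposited fold change was not used. With a threshold of 3-fold, 12 members were higher in the adult and 9 at E15, and with 4-fold 8 and 3, where 8.87% and 9.98%, and 5.03% and 5.84%, of all joined clusters were. Members found by symbol alone (34) gave 12 and 11, and without electronically inferred annotations (62 members) 16 were higher in the adult and 18 at E15, which turns the order of the counts. The median difference in the gene-level table alone was 1.03, and 38 of 78 indices had a size of at least 1. Re-centring left 0 calcium channel pores, 3 partners and 0 plexus channels past 2-fold at E15, reversed Cacna2d3 (to 0.0301) and Hvcn1 (to 0.0373), and kept the sign of the other 85 members. Of 36 counts over role groups, 35 stayed within 1.5 times. Leaving out members that are no channels by name, an alternative chosen after seeing the data, left 78 members, 27 past 2-fold in the adult and 20 at E15. No member had a second cluster to try. Signal over background cannot be read from centred values.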

Other observations

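Some channel genes lay outside the rule because their ontology text or symbol did not meet it, and they were chosen after their values were seen. Tmem16a, a calcium-activated chloride channel, stood at -0.54 in the adult and 0.76 at E15, a difference of -1.30. Its relatives Tmem16e and Tmem16d had differences of -1.46 and 0.85. Panx1, a pannexin that releases ATP, stood at -0.65 and 0.69 (-1.34). The water channel Aqp4 and the anion exchanger Slc26a7 carry the ontology words but were left out by symbol, and had differences of 1.25 and -1.06. Lynx1, which binds nicotinic receptors, was higher in the adult by 2.61.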
